A study of Homo sapiens with 72 samples.

Results

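JARID1B (KDM5B), JARID1A (KDM5A) and the class I histone deacetylases HDAC1, HDAC2 and HDAC3 are chromatin enzymes. The study's network analysis considered JARID1B, HDAC1 and HDAC2 as regulators of genes responding to α-particles, and JARID1A and HDAC3 are their close relatives. The mRNA level of these 5 genes was followed here in irradiated and bystander fibroblasts. They were represented by 7 of the 41000 probes on the array, chosen by the gene name in the scanner files alone. JARID1B and JARID1A had 2 probes each and the deacetylases had 1 each. All 7 probes were well above background on all 72 arrays and were among the 25238 probes kept for testing.

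The cells were IMR-90, an established strain of human lung fibroblasts. Irradiated cells received 50 cGy of α-particles (4He ions), bystander cells shared the dish and its medium with irradiated cells but were shielded from the ions, and control cells were sham irradiated. RNA was taken at 6 times after exposure (0.5 h, 1 h, 2 h, 4 h, 6 h and 24 h) in 4 independent experiments, which gave 18 groups of 4 one-color arrays. Within an experiment the cells of all 3 treatments came from the same sub-cultivated pool, so each irradiated or bystander array was compared with the control array of its own experiment and time, and irradiated and bystander ratios share their control arrays. All cells derive from 1 strain, and the tests measure the spread between experiments on it. The fibroblast markers COL1A1, COL1A2, COL3A1, VIM, FN1, THY1, S100A4 and PDGFRB were well above background on 72 of 72 arrays. The epithelial marker CDH1 and the leukocyte marker PTPRC were well above background on 0 arrays, the keratin gene KRT5 on 1, PECAM1 on 2, CDH5 on 12 and EPCAM on 44, while the probes of SFTPC, VWF and CD68 were well above background on 72. Any part of other cell types in the values below was not tested.

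The JARID1 proteins are JmjC-domain dioxygenases that remove methyl groups from lysine 4 of histone H3, a mark of active promoters, and JARID1B is known as a transcriptional repressor of cell cycle and differentiation genes. Class I deacetylases remove acetyl groups from histone tails. HDAC1 and HDAC2 are the catalytic subunits of the SIN3, NuRD and CoREST corepressors, and HDAC3 is that of the NCoR and SMRT corepressor. JARID1 demethylases and deacetylases can occur in the same complexes, so that methyl and acetyl marks are removed together.

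Each probe is a 60-base oligonucleotide, and its values can be read only as the signal of that stretch of the transcript. The first 30 bases of each probe are given, 5′ to 3′, as the array design in the scanner files lists them, to show what was measured. No base is set in capitals because none is singled out.
JARID1B, probe A_32_P70724: atagcccatagctattttccttgcttttct
JARID1B, probe A_23_P1038: tggcacaacatcattttctttgcctgatga
JARID1A, probe A_23_P204406: ctacaaggcaaggagccgttttttggcttt
JARID1A, probe A_23_P204408: aaagagaagaagatgacgagtatgaccagt
HDAC1, probe A_23_P114656: aacatcagccatttttagattggttctgtt
HDAC2, probe A_23_P122304: ggaaccaaatcagaacagctcagcaacccc
HDAC3, probe A_23_P7388: atatgagacatcgctgctggtagaagaggc
No 2 of the 7 full probes shared a run of more than 8 bases. The HDAC1 probe was printed 10 times on every array, and the SD of its spots within an array had a median of 0.11 on the log2 scale (lowest 0.07, highest 0.20). This is the spread between single spots of an array. The HDAC1 values below are means of these spots, and their technical spread between arrays was not measured.

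All levels are log2 signals after every array was scaled to the same 75th percentile, and all differences are log2 ratios within an experiment. Signals of different probes were not read as differences in mRNA abundance, and "brighter" refers to the signal of a probe only. The 6 times lay on different slides, so levels of different times cannot be told apart from slides and were not compared either.

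The control arrays of experiments 3 and 4 stood apart from their treated partners over the whole array. Averaged over the 6 times, 39.5% of tested probes differed by more than 0.5 between irradiated and control arrays in experiment 4 and 19.9% in experiment 3, against 8.23% in experiment 1 and 4.6% in experiment 2. For bystander arrays the shares were 38% and 19.2% in experiments 4 and 3, against 3.78% and 4.33%. Between irradiated and bystander arrays the share was at most 1.76% in any experiment. Comparisons with control rest on these arrays, and means over the 6 times that moved with them are also given without experiment 3 or 4.

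Across 42 tests of the 7 probes (6 times each), 1 was called for irradiated cells at an adjusted p below 0.10 (limma, Benjamini-Hochberg over all tested probes) and 0 for bystander cells. The call was 1 JARID1A probe at 0.5 h. Among all tested probes, the share called after irradiation was 10.3% at 0.5 h, 0% at 1 h, 6.13% at 2 h, 1.18% at 4 h, 10.7% at 6 h and 0.166% at 24 h. For bystander cells it was 6.98% at 0.5 h, 0% at 1 h, 0.23% at 2 h, 0.618% at 4 h, 0.277% at 6 h and 0.0198% at 24 h. At an unadjusted p below 0.05, 8 of the 42 tests (19%) passed for irradiated and 5 (11.9%) for bystander cells, beside 21.5% and 15.7% of the tests of all probes over the 6 times. The mean ratios of the 7 probes lay between -0.50 (JARID1B at 6 h) and 0.50 (JARID1A at 0.5 h), both in irradiated cells.

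**Figure D1:**
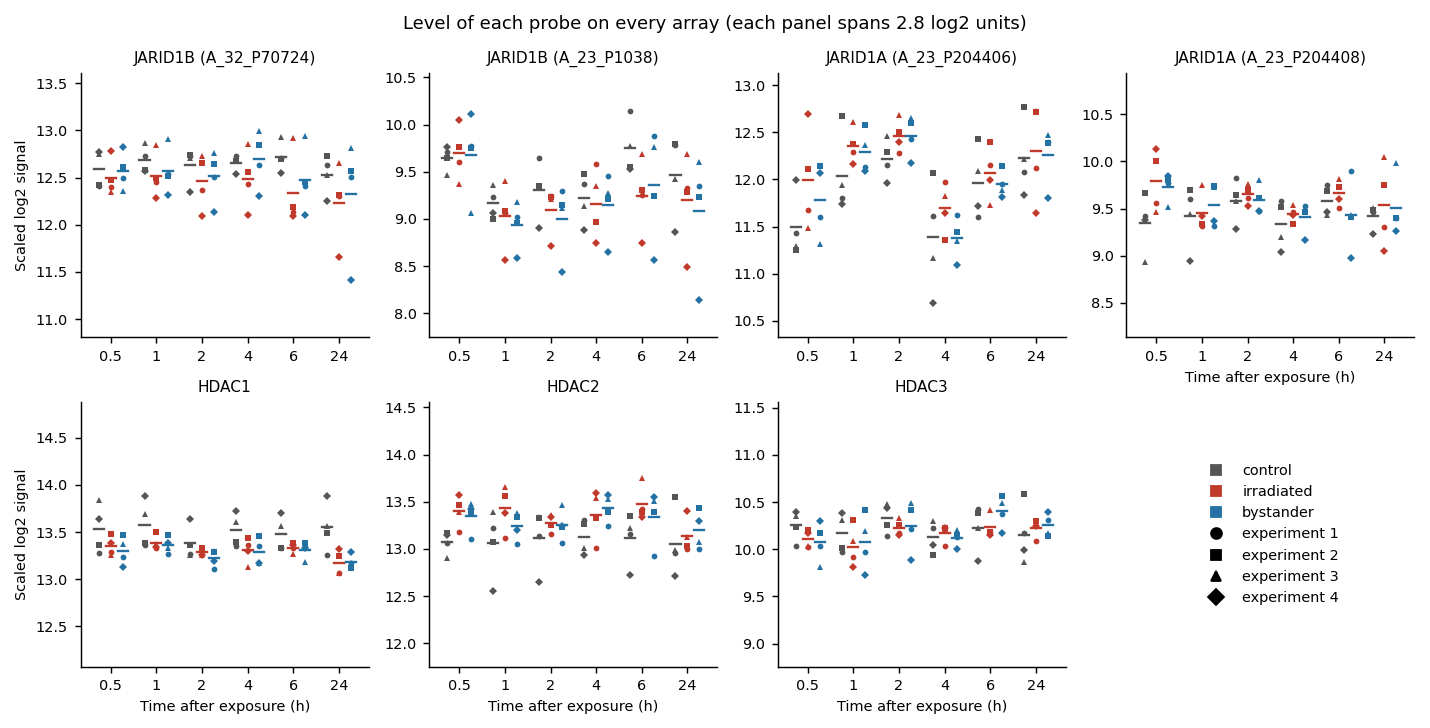
Scaled log2 signal (vertical axis) of each of the 7 probes on all 72 arrays against time after exposure in hours (horizontal axis). Color gives the treatment, marker shape the experiment, and the horizontal bar the mean of 4 arrays; HDAC1 levels of control arrays in experiments 3 and 4 lie above all treated arrays of the same time, except that of experiment 3 at 2 h, which lies among them.

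On its brighter probe JARID1B had means below control in irradiated cells, but at no single time did the difference pass the test. The brighter probe, A_32_P70724, had a median level of 12.70 over the 24 control arrays (lowest 12.25, highest 12.93), of 12.42 after irradiation (11.65 to 12.92) and of 12.52 in bystanders (11.41 to 13.00). The ranges of the 3 treatments overlapped widely. The irradiated mean was below control at all 6 times, by 0.09 at 0.5 h, 0.17 at 1, 2 and 4 h, 0.39 at 6 h and 0.30 at 24 h, and 19 of the 24 paired ratios were negative. Single experiments moved these means. Without experiment 3 the mean at 0.5 h was 0.02 and the other 5 stayed below control, the mean at 4 h was -0.28 without experiment 3 and -0.09 without experiment 4, and that at 2 h was -0.11 without experiment 1. Without scaling of the arrays 5 of the 6 means were below control. The other probe, A_23_P1038, was at 0.05 at 0.5 h and between -0.50 and -0.06 at the other 5 times, and 17 of its 24 pairs were lower. Its mean at 4 h turned from -0.06 to 0.09 without experiment 2, and without experiment 4 that at 0.5 h turned to -0.03 and that at 1 h went from -0.13 to -0.02. Without scaling both probes were called lower at 2 h and 6 h, beside 7.78% of the irradiated tests of all probes. The unscaled median of all tested probes was itself -0.38 at 2 h and -0.34 at 6 h. In 1 fit over all 72 arrays both probes were called lower at 6 h, beside 7.68% of the tests of all probes.

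The largest difference of JARID1B was at 6 h. On the brighter probe the control arrays of experiments 1 to 4 read 12.71, 12.70, 12.93 and 12.55, the irradiated arrays 12.13, 12.19, 12.92 and 12.10 and the bystander arrays 12.41, 12.45, 12.94 and 12.10. Irradiated arrays were low in experiments 1, 2 and 4 and equal to control in experiment 3, so the groups overlapped. The irradiated ratio was -0.39 ± 0.26 (SD, n = 4; 95% interval -0.69 to -0.08; 0.764-fold), with adjusted p = 0.12 (limma). A_23_P1038 read 10.15, 9.55, 9.77 and 9.53 on the control arrays at 6 h and 9.25, 9.30, 9.69 and 8.74 on the irradiated arrays. Its ratio was -0.50 ± 0.40 (95% interval -0.94 to -0.07; 0.705-fold), with adjusted p = 0.144, and the groups overlapped through experiment 3 again.

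Both JARID1B probes gave the same sign in 20 of 24 irradiated pairs and in 19 of 24 bystander pairs. In bystander cells the brighter probe ranged from -0.25 at 6 h to 0.03 at 4 h, and 15 of 24 pairs were lower. Without experiment 4 its mean was 0.12 at 4 h and 0.004 at 24 h. Without experiment 3 it was 0.11 at 0.5 h and -0.37 at 24 h. The other probe was at 0.03 at 0.5 h and between -0.39 and -0.07 at the other 5 times, and 18 of 24 pairs were lower. Without experiment 4 its mean was -0.08 at 0.5 h, -0.14 at 1 h and -0.20 at 6 h. Without experiment 3 it was 0.18 at 0.5 h and -0.58 at 24 h. The bystander value with the smallest p on that probe was -0.31 ± 0.12 at 2 h, lower in 4 of 4 experiments, with adjusted p = 0.21.

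JARID1A, the closest relative of JARID1B in this set and a binding partner of the retinoblastoma protein, had irradiated means above control at all 6 times on both probes when arrays were scaled, but at only 3 of 6 times on each probe without scaling, and 1 of the 12 scaled tests was called. Of the 24 irradiated pairs, 18 were higher on A_23_P204406 and 16 on A_23_P204408, and 11 on each without scaling. Without experiment 3 the means of A_23_P204408 were above control at 3 of 6 times and those of A_23_P204406 at 5. Without experiment 4 they were above it at 5 and 6 times, and without experiment 1 at 6 and 5. At 0.5 h the probe A_23_P204408 read 9.42, 9.66, 8.93 and 9.37 on the control arrays, 9.56, 10.002, 9.47 and 10.14 on the irradiated arrays and 9.77, 9.80, 9.51 and 9.85 on the bystander arrays. Each irradiated and bystander array was above its own control, although the groups overlapped. The irradiated ratio of 0.44 ± 0.27 (95% interval 0.15 to 0.74; 1.36-fold) was the one member test called, with adjusted p = 0.0878, beside the 10.3% of probes called at that time. The bystander ratio was 0.38 ± 0.19 (0.09 to 0.68; 1.31-fold), with adjusted p = 0.137.

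The second JARID1A probe, A_23_P204406, read 11.43, 11.26, 11.29 and 11.99 on the control arrays at 0.5 h and 11.67, 12.11, 11.48 and 12.70 on the irradiated arrays. The ratio was 0.50 ± 0.33 (0.14 to 0.85; 1.41-fold), higher in 4 of 4 experiments, and its adjusted p of 0.1001 fell just outside the threshold. The call at 0.5 h therefore sits at the threshold for both probes. With slide as a fixed block the ratio of A_23_P204408 was 0.51 and the call was lost (adjusted p = 0.146). It was also lost without scaling (adjusted p = 0.70), with normexp background correction (0.206), with the authors' value table (0.101), without the filter on dim probes (0.128), without the intensity trend (0.101) and with no replicate block (0.386), at ratios between 0.38 and 0.46. It was kept with quantile normalization and in 1 fit over all 72 arrays, beside 5.15% and 7.68% of the irradiated tests of all probes. The call was lost in all 4 fits that left out 1 experiment, in which the ratio of A_23_P204408 stayed between 0.34 and 0.54 with adjusted p between 0.134 and 0.317. Without experiment 4 the other probe was called at 2 h instead (limma). It was at 0.19 in irradiated cells (adjusted p = 0.0997) and 0.26 in bystander cells (adjusted p = 0.0566). These calls stand beside 3.73% of the irradiated and 2.49% of the bystander tests of all probes without experiment 4.

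After 0.5 h the 2 JARID1A probes differed in size. A_23_P204406 had irradiated ratios of 0.32 at 1 h, 0.25 at 2 h, 0.32 at 4 h, 0.11 at 6 h and 0.08 at 24 h, whereas A_23_P204408 stayed between 0.03 and 0.12 at these times. Single experiments moved the values of A_23_P204406. Its mean at 1 h was 0.53 without experiment 2 and 0.20 without experiment 3. That at 4 h was 0.66 without experiment 2 and 0.10 without experiment 4, and that at 6 h was -0.04 without experiment 1 and 0.27 without experiment 3. In bystander cells A_23_P204406 was at 0.29, 0.25, 0.25, -0.01, -0.01 and 0.04 at the 6 times in order, and A_23_P204408 at 0.38, 0.12, 0.01, 0.08, -0.15 and 0.09, so JARID1A was not above control throughout. The bystander value of A_23_P204406 at 0.5 h was 0.09 without experiment 2. The probes shared the sign in 16 of 24 irradiated and 15 of 24 bystander pairs, and their ratios differed by up to 0.80 in 1 pair. At 4 h the irradiated ratios of A_23_P204406 were 0.36, -0.71, 0.66 and 0.96 in experiments 1 to 4, so experiment 2 lay opposite to the others. Its steadiest value was that of bystander cells at 2 h, 0.25 ± 0.06, higher in 4 of 4 experiments, with adjusted p = 0.23.

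The mean of HDAC1 was below control at all 6 times in both treatments (5 of 6 in each without scaling), none of them past the test, and averaged over the times the difference lay mostly in experiments 3 and 4. Without experiment 4 the irradiated mean at 2 h was at control (0.00051). Its median level was 13.44 in controls (13.26 to 13.88), 13.33 after irradiation (13.07 to 13.50) and 13.29 in bystanders (13.11 to 13.47). The largest ratio was at 24 h, when the control arrays read 13.26, 13.49, 13.57 and 13.88, the irradiated arrays 13.07, 13.25, 13.07 and 13.32 and the bystander arrays 13.18, 13.12, 13.17 and 13.28. Every treated array was below its own control, and only the control of experiment 1 reached into the treated range. The ratios were -0.37 ± 0.19 for irradiated (95% interval -0.66 to -0.08; 0.772-fold; adjusted p = 0.292) and -0.36 ± 0.21 for bystander cells (-0.65 to -0.07; 0.777-fold; adjusted p = 0.388).

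By experiment, the mean HDAC1 ratio over the 6 times was -0.03, 0.01, -0.36 and -0.42 in irradiated cells and -0.06, -0.03, -0.33 and -0.50 in bystander cells. The control arrays themselves differed between experiments. Their mean HDAC1 level over the 6 times was 13.31 and 13.39 in experiments 1 and 2 but 13.59 and 13.75 in experiments 3 and 4. The irradiated means of the 4 experiments were 13.28, 13.40, 13.23 and 13.33 and the bystander means 13.25, 13.36, 13.25 and 13.25, which lie within a narrower range than the controls. Without experiment 4 the mean HDAC1 ratio was -0.13 in irradiated and -0.14 in bystander cells, and without experiment 3 it was -0.15 and -0.20.

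**Figure D2:**
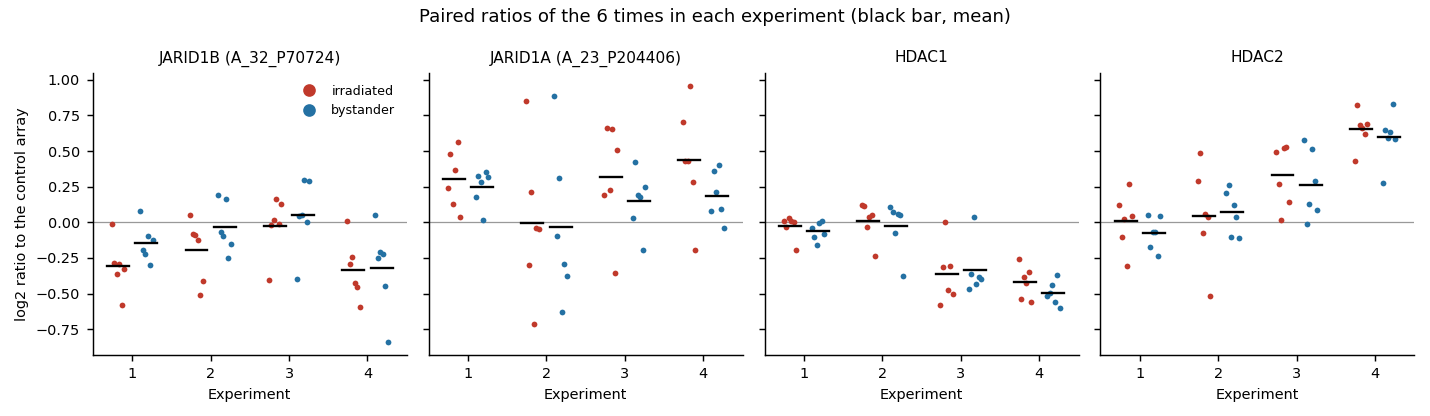
Log2 ratio to the control array (vertical axis) by experiment (horizontal axis) for the brighter JARID1B and JARID1A probes, HDAC1 and HDAC2. Each point is 1 of the 6 times, red for irradiated and blue for bystander cells, and the black bar is their mean; for HDAC1 and HDAC2 the points of experiments 1 and 2 lie around 0 and those of experiment 4 lie on 1 side of it in both treatments.

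HDAC2, the partner of HDAC1 in the same corepressors, had means above control at all 6 times in both treatments when arrays were scaled, none of them past the test. Without scaling they were above control at 3 of 6 times in irradiated and 4 of 6 in bystander cells, and the irradiated pairs that were higher went from 20 to 15 of 24. Without experiment 4 the irradiated mean was -0.01 at 2 h and -0.11 at 24 h and the bystander mean -0.01 at 2 h, so the direction at these times rested on that experiment. At 0.5 h the control arrays read 13.06, 13.17, 12.90 and 13.14, the irradiated arrays 13.18, 13.46, 13.40 and 13.57, and the bystander arrays 13.11, 13.38, 13.48 and 13.42. Irradiated and control arrays did not overlap, although the lowest irradiated array (13.177) was barely above the highest control (13.174). This was the only such case among the 84 comparisons of members with control, beside 8.9% of all tested probes without overlap at that time. The irradiated ratio was 0.33 ± 0.17 (95% interval 0.08 to 0.59; 1.26-fold) with adjusted p = 0.117, and the bystander ratio 0.28 ± 0.22 with adjusted p = 0.194.

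At the later times the irradiated HDAC2 ratio was 0.37 at 1 h, 0.16 at 2 h, 0.23 at 4 h, 0.36 at 6 h and 0.09 at 24 h, and 20 of 24 irradiated and 17 of 24 bystander pairs were higher. Without experiment 4 the irradiated values at 1 h and 4 h were 0.22 and 0.09. The value at 4 h was 0.14 without experiment 3 and 0.41 without experiment 1, and that at 24 h was 0.29 without experiment 2. Experiment 4 was again the largest, with a mean ratio over the 6 times of 0.65 in irradiated and 0.60 in bystander cells, against 0.01 and -0.07 in experiment 1. The mean control level of HDAC2 was 12.79 in experiment 4 and between 13.14 and 13.29 in the other 3 experiments. The mean HDAC2 ratio was 0.26 in irradiated and 0.21 in bystander cells over all experiments, 0.13 and 0.09 without experiment 4 and 0.24 and 0.20 without experiment 3. Without experiment 1 the irradiated value was called, at 0.34 (limma, adjusted p = 0.097), beside 25.5% of all tested probes.

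HDAC3 had the mean ratios nearest to 0 when arrays were scaled. Its median level was 10.23 in controls (9.86 to 10.59), 10.19 after irradiation (9.81 to 10.41) and 10.18 in bystanders (9.73 to 10.57). Its irradiated ratios lay between -0.15 at 0.5 h and 0.07 at 24 h and its bystander ratios between -0.17 at 0.5 h and 0.18 at 6 h. The mean over the 6 times was -0.04 in irradiated cells, with a 95% interval of -0.19 to 0.10, and -0.01 in bystander cells, with an interval of -0.15 to 0.13. Without scaling it was -0.23 in irradiated cells, with 5 of 6 time means below control, and -0.05 in bystander cells.

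Irradiated and bystander cells were also compared directly. The ratios do not use the control arrays, but the fit of all 12 arrays of a time takes its spread from them as well, so the comparison was also fitted on the 8 irradiated and bystander arrays alone. In the fit of 12 arrays none of the 42 member tests was called (limma), none had an unadjusted p below 0.05 (beside 1.86% of the tests of all probes), and the lowest adjusted p was 0.926. Of all tested probes 0.0436% were called at 2 h and 0% at the other 5 times. In the fit of 8 arrays 0 of 42 were called as well, with a lowest adjusted p of 0.227, but 3 (7.14%) had an unadjusted p below 0.05, beside 7.83% of the tests of all probes. These were JARID1B A_32_P70724 at 4 h (-0.21; adjusted p = 0.608), JARID1A A_23_P204406 at 4 h (0.32; adjusted p = 0.608) and HDAC2 at 1 h (0.19; adjusted p = 0.227). The JARID1B pairs at 4 h were -0.20, -0.28, -0.14 and -0.20 in experiments 1 to 4, all on the same side of 0. Of all tested probes the fit of 8 arrays called 0.111% at 2 h, 0.262% at 4 h, 0.0198% at 6 h and 0% at the other 3 times. The brighter JARID1B probe was lower in irradiated than in bystander cells in 22 of 24 pairs, with time means between -0.21 at 4 h and -0.05 at 2 h. Its mean over the 6 times was -0.10, lower in 4 of 4 experiments, with a 95% interval of -0.27 to 0.06 from 12 arrays a time and of -0.19 to -0.01 without the controls (adjusted p = 0.264, beside 2.72% of all tested probes called), whereas the other JARID1B probe was at 0.04 (-0.15 to 0.22) and lower in 8 of 24 pairs. JARID1A A_23_P204406 was at 0.13 in the mean without the controls, with a 95% interval of 0.03 to 0.23 (limma, adjusted p = 0.224). The other JARID1A probe was at 0.05 (-0.06 to 0.17). HDAC1 differed by 0.03 (-0.17 to 0.23) and HDAC2 by 0.05 (-0.20 to 0.29) between irradiated and bystander cells, with intervals of -0.05 to 0.11 and -0.04 to 0.13 without the controls. The number of JARID1B pairs that were lower was 15 of 24 without scaling.

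The 6 times were also averaged within each experiment. After irradiation 2 of the 7 probes were called: the brighter JARID1B probe fell by 0.22 ± 0.14 (SD, n = 4; 0.861-fold; adjusted p = 0.0778), and JARID1A A_23_P204406 rose by 0.26 ± 0.19 (1.20-fold; adjusted p = 0.0565). Of all tested probes 27.6% were called in this comparison, so 2 of 7 is near the background share. The 4 experiments gave -0.31, -0.19, -0.02 and -0.33 for JARID1B and 0.30, -0.005, 0.32 and 0.44 for JARID1A. The other JARID1B probe was at -0.19 (adjusted p = 0.133), the other JARID1A probe at 0.14 (0.299), HDAC1 at -0.20 (0.143), HDAC2 at 0.26 (0.123) and HDAC3 at -0.04 (0.636).

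In bystander cells 0 of the 7 probes were called in the mean over the 6 times (limma), beside 13.8% of all tested probes. The values were -0.11 and -0.23 for the JARID1B probes, 0.14 and 0.09 for the JARID1A probes, -0.23 for HDAC1, 0.21 for HDAC2 and -0.01 for HDAC3. Single experiments moved several of these means: JARID1B A_32_P70724 was at -0.04 without experiment 4 and -0.17 without experiment 3, and JARID1A A_23_P204408 at 0.01 without experiment 3 and 0.07 without experiment 4. In irradiated cells A_23_P204408 was at 0.06 without experiment 3 and 0.09 without experiment 4. For JARID1B A_23_P1038 the values without experiments 3 and 4 were -0.26 and -0.16 in irradiated and -0.27 and -0.16 in bystander cells. Between irradiated and bystander cells 0 of 7 probes and 0.00397% of all tested probes were called. Both calls in irradiated cells were lost without the 0.5 h arrays, where JARID1B was at -0.24 (adjusted p = 0.138) and JARID1A at 0.21 (adjusted p = 0.186), and with no replicate block (adjusted p of 0.445 and 0.309). The JARID1B call was also lost without the 6 h arrays (adjusted p = 0.122), with the authors' value table (0.135) and without the filter on dim probes (0.103), at values between -0.22 and -0.18, and the JARID1A call was lost without scaling (adjusted p = 0.671). Leaving out any 1 experiment ended the JARID1B call, with values between -0.28 without experiment 3 and -0.18 without experiment 4. The JARID1A call was kept without experiment 2, at 0.35 (limma, adjusted p = 0.0636), beside 23.5% of all tested probes. It was lost without experiments 1, 3 or 4, with values between 0.20 and 0.25.

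**Figure D3:**
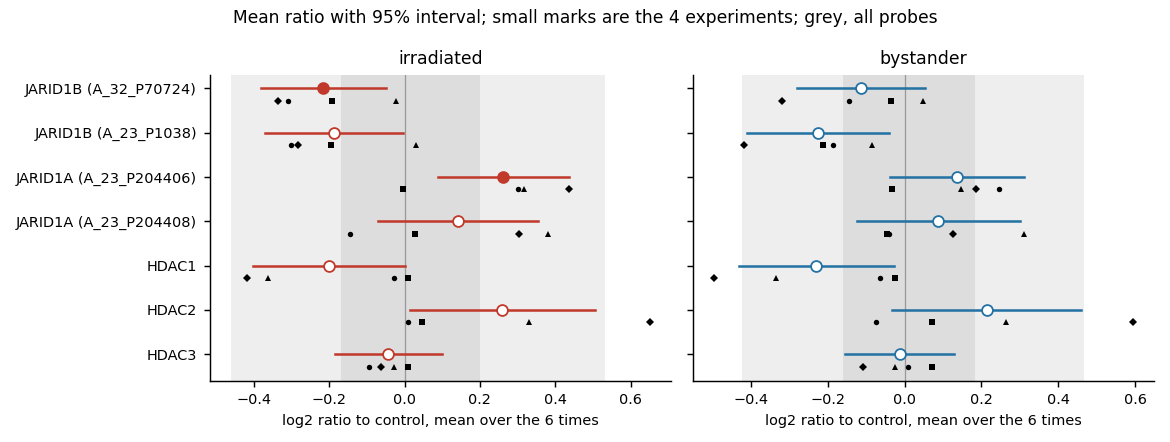
Log2 ratio to control averaged over the 6 times (horizontal axis) for the 7 probes (vertical axis), with irradiated cells on the left and bystander cells on the right. Circles are means with 95% intervals, filled where the adjusted p is below 0.10, small black marks are experiments 1 (circle), 2 (square), 3 (triangle) and 4 (diamond), and the grey bands hold the middle of all tested probes (dark, 25th to 75th percentile; light, 5th to 95th); the 2 filled circles are JARID1B at -0.22 and JARID1A at 0.26, both inside the light band.

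The ratio of 2 probes on the same array is not moved by any scaling of that array, so JARID1A was also set against JARID1B (brighter probes) and HDAC2 against HDAC1. The change of JARID1A relative to JARID1B was 0.48 ± 0.26 after irradiation, with 0.61, 0.19, 0.34 and 0.77 in experiments 1 to 4, and was positive in 21 of 24 pairs. It was 0.25 ± 0.24 in bystander cells and positive in 17 of 24 pairs. At 24 h the irradiated values were 0.36, 0.37, 0.38 and 0.40, the closest agreement between experiments of any time. Both pairs of genes were chosen after their values were seen, so no test is given.

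Relative to HDAC1, HDAC2 differed by 0.46 ± 0.51 after irradiation and by 0.44 ± 0.51 in bystanders, positive in 18 and 19 of 24 pairs. By experiment it was 0.04, 0.04, 0.69 and 1.07 in irradiated cells and -0.01, 0.10, 0.60 and 1.09 in bystander cells. The SD exceeds the mean in both treatments. Over the 72 arrays, after the mean of the 3 arrays of the same time and experiment was taken off, HDAC2 and HDAC1 correlated at r = -0.70. Within experiments (18 arrays each) r was 0.11, 0.52, -0.79 and -0.92, so the negative relation came from experiments 3 and 4. The arrays share their controls and blocks, and r is given as a description.

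**Figure D4:**
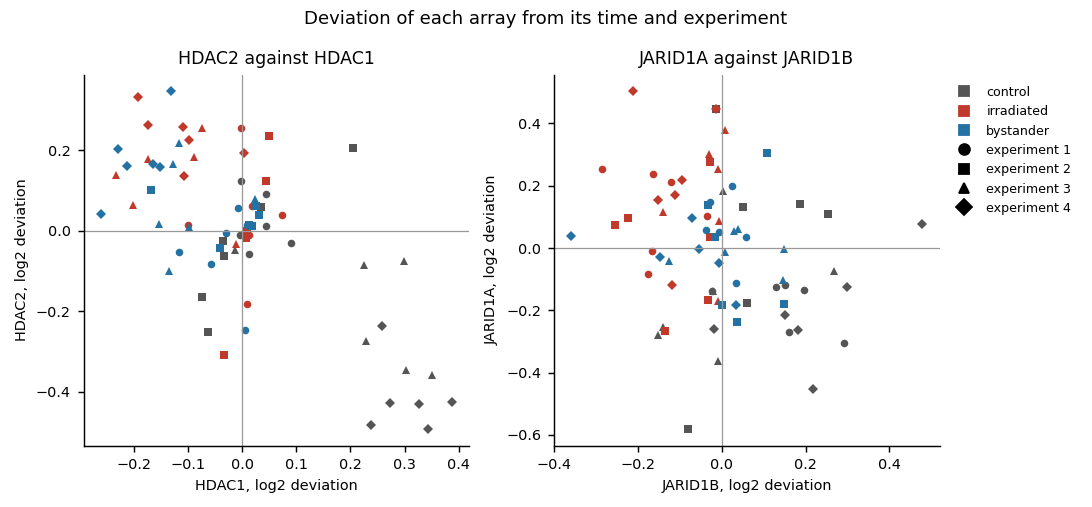
Log2 deviation of each of the 72 arrays from the mean of the 3 arrays of its time and experiment, HDAC2 (vertical) against HDAC1 (horizontal) on the left and JARID1A against JARID1B (brighter probes) on the right. Color gives the treatment and marker shape the experiment; in the left panel the control arrays of experiments 3 and 4 lie at high HDAC1 and low HDAC2, except that of experiment 3 at 2 h, which lies near 0.

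Scaling and slides moved with these values as well. The direction of some members depended on scaling. Before scaling, the median ratio over all tested probes was -0.17 in the mean over the 6 times for irradiated arrays and -0.03 for bystander arrays, but it differed by time, from -0.38 at 2 h to 0.17 at 1 h for irradiated and from -0.26 at 2 h to 0.42 at 4 h for bystander arrays. Without scaling the irradiated mean was -0.40 for JARID1B (A_32_P70724), -0.38 for HDAC1, 0.08 for JARID1A (A_23_P204406) and 0.08 for HDAC2, so JARID1B and HDAC1 stayed below control while JARID1A (A_23_P204408) turned to -0.04. With quantile normalization, normexp background correction or the authors' value table, the JARID1B means stayed below control and the JARID1A and HDAC2 means above it in both treatments.

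Slides differed between pairs. In 12 of 24 bystander pairs both arrays lay on 1 slide, and in these the brighter JARID1B probe averaged -0.27 (11 of 12 lower), against 0.04 (4 of 12 lower) in pairs split over 2 slides. For irradiated cells it was -0.22 in the 18 pairs on 1 slide and -0.19 in the 6 split pairs. HDAC1 averaged -0.27 in irradiated pairs on 1 slide and 0.01 in split pairs, and HDAC2 0.33 and 0.05. In bystander pairs HDAC1 was at -0.28 on 1 slide and -0.18 in split pairs, and HDAC2 at 0.29 and 0.14. The 6 split irradiated pairs were those of experiment 2, so slide and experiment cannot be told apart in these irradiated values. In bystander cells the pairs on 1 slide were those of experiments 1 and 4, and the split pairs those of experiments 2 and 3. Only at 0.5 h was the pair of experiment 3 on 1 slide and that of experiment 4 split. The bystander values by slide therefore can hardly be told apart from experiment either.

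The genes around the members were described with 11 lists of chromatin genes, counted without the 5 members. Of 165 probes of 98 genes that passed the filter, 38 probes (23.0%) were called in at least 1 of the 12 comparisons with control, beside 22.5% of all tested probes. After irradiation 9 were higher and 4 lower at 0.5 h (6.62% and 3.66% of all tested probes), 1 higher and 9 lower at 2 h (3.5% and 2.63%) and 2 higher and 13 lower at 6 h (5.55% and 5.13%). In bystander cells 4 were higher and 1 lower at 0.5 h (4.35% and 2.62%), and 0 were called at the other times (limma). In the mean over the 6 times 7 probes were higher and 33 lower after irradiation, a share of 24.2% beside the background of 27.6% (15% higher and 12.6% lower), with a list median of -0.10 against 0.01 over all tested probes. For bystander cells 1 was higher and 14 lower (7.3% and 6.47% of all tested probes), with a median of -0.08 against 0.01. List calls in these means were not counted without experiment 3 or 4. The share of all tested probes called in the irradiated mean was 2.81% without experiment 3 and 7.05% without experiment 4.

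Among the closest relatives, JARID1C, another H3K4 demethylase of the family, was at -0.30 in the mean over the 6 times after irradiation and was called lower there, beside the 27.6% of all tested probes. It was called in 0 of the 12 comparisons at single times, and HDAC8, the remaining class I deacetylase, likewise had 0 of 2 probes called in them and 0 in the mean (limma). Of the class II and IV deacetylases, which shuttle between nucleus and cytoplasm or stand alone, 0 of 12 probes were called higher and 4 lower in the irradiated mean over the 6 times (median -0.15), beside 15% higher and 12.6% lower of all tested probes. In the values that follow, a gene with several tested probes is given by the probe that was called, with the number of its probes. HDAC7 fell by 0.64 ± 0.44 at 0.5 h on 1 of 2 probes (adjusted p = 0.071), and HDAC5 fell by 0.57 ± 0.07 at 6 h on 1 of 3 (adjusted p = 0.06), with the others at -0.21 and -0.15. Of the sirtuins, NAD-dependent deacylases, 0 of 10 probes were called higher and 4 lower in that mean, beside the same shares of all tested probes. SIRT2 fell by 0.58 ± 0.23 at 0.5 h and SIRT3 by 0.50 ± 0.44 at 2 h on 1 of 3 probes.

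The complexes that carry HDAC1 and HDAC2 were counted one by one. In the irradiated mean over the 6 times, the NuRD complex, which joins deacetylation to chromatin remodeling, had 0 of 20 probes called higher and 7 lower (median -0.20), beside 15% higher and 12.6% lower of all tested probes. CHD3, a remodeling ATPase of NuRD, fell by 1.29 ± 0.96 at 6 h, with ratios of -1.03, -0.25, -1.34 and -2.56 in experiments 1 to 4, and the NuRD subunit MTA3 (listed under a transcript name) fell by 0.88 ± 0.55 on 1 of 2 probes. The SIN3 complex had 0 of 26 probes called higher and 2 lower, with a median of 0.00, beside the same 15% and 12.6%. At 6 h SIN3B, a scaffold of that complex, rose by 0.70 ± 0.43 and its subunit SAP30L fell by 0.81 ± 0.73 on 1 of 2 probes. The probes of the subunit SAP18 disagreed. The one with the weakest signal, A_24_P381555, fell by 1.48 ± 0.93, whereas the other 2 were at 0.29 and 0.27, above control in 4 of 4 experiments and not called (adjusted p of 0.224 and 0.245), so no direction is given for SAP18. At 0.5 h ING1, which binds methylated H3K4, rose by 0.62 ± 0.13 in bystander cells on 1 of 2 probes (adjusted p = 0.026), with the other at 0.52. RBBP4 and RBBP7 belong to both lists.

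The CoREST complex had 1 of 14 probes called higher and 4 lower in the irradiated mean, beside 15% higher and 12.6% lower of all tested probes. Of its zinc-finger subunit ZMYM2, the probe of weaker signal was called at 0.5 h, at 1.20 ± 0.59 (adjusted p = 0.037), and the other was at 0.25 and not called (adjusted p = 0.208). ZMYM3 fell by 0.94 ± 0.45 at 6 h on 1 of 2 probes, with the other at -0.62. PHF21A, which reads unmethylated H3K4, fell by 0.43 ± 0.18 at 2 h on 1 of 2 probes, with the other at -0.41. The NCoR and SMRT complex, the partner of HDAC3, had 1 of 12 probes called higher and 2 lower in that mean (median -0.11), beside the same shares, and 2 lower at 6 h (5.13% of all tested probes). Its subunit TBL1X, which exchanges corepressors for coactivators, fell by 1.00 ± 0.60 at 6 h. Of its relative TBL1XR1, 1 of 5 probes was called at 6 h, at -0.68 ± 0.58, and the other 4 lay between -1.18 and -0.15 and were not called. CORO2A rose by 0.66 ± 0.39 at 2 h.

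The lists of H3K4 methyltransferases with their core subunits and of histone acetyltransferases had calls in both directions. Whether the product of each listed gene adds the mark was not tested. The H3K4 methyltransferases and their core subunits had 2 of 26 probes called higher and 3 lower in the irradiated mean (median -0.03), beside 15% higher and 12.6% lower of all tested probes. ASH1L, a large SET-domain methyltransferase, rose by 0.75 ± 0.26 at 0.5 h, MEN1, a subunit of the MLL complexes, fell by 0.71 ± 0.47 at 6 h and KMT2E (listed as MLL5) fell by 0.42 ± 0.27 at 2 h on 1 of 2 probes, with the other at -0.14. Of the histone acetyltransferases, 2 of 23 probes were called higher and 4 lower (median -0.14), beside the same shares. HAT1, which acetylates newly made histone H4, rose by 0.65 ± 0.59 at 6 h and the coactivator NCOA3 rose by 0.53 ± 0.12 at 0.5 h on 1 of 3 probes (the others at 0.36 and 0.51), whereas KAT7 (listed as MYST2) and NCOA1 fell by 0.79 ± 0.45 and 0.77 ± 0.42 at 6 h.

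Other lysine demethylases had 1 of 24 probes called higher and 2 lower in the irradiated mean (median -0.12), beside 15% and 12.6% of all tested probes. At 0.5 h 4 were higher and 0 lower, beside 6.62% and 3.66% of all tested probes. They had 0 higher and 1 lower at both 2 h (3.5% and 2.63% of all) and 6 h (5.55% and 5.13%). JMJD1C rose by 1.01 ± 0.80 at 0.5 h, where 2 of its 3 probes were called, and KDM7A (listed as JHDM1D) by 0.70 ± 0.42. PHF2 fell by 0.47 ± 0.07 at 2 h on 1 of 3 probes, with the others at -0.17 and -0.03, and KDM2B (listed as FBXL10) fell by 0.81 ± 0.49 at 6 h on 1 of 2, with the other at -0.50. Of the 29 named list genes, 16 had several tested probes, and in 15 of these only 1 probe was called; the other probes had the same sign in 15, all but SAP18. These 29 genes, which include MT1F and MT1E described next, all kept their direction without scaling, but 11 lost their call. Calls were lost for 25 without the filter on dim probes, 17 with slide as a block, 29 with no replicate block and 23, 24, 17 and 21 without experiments 1, 2, 3 and 4.

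**Figure D5:**
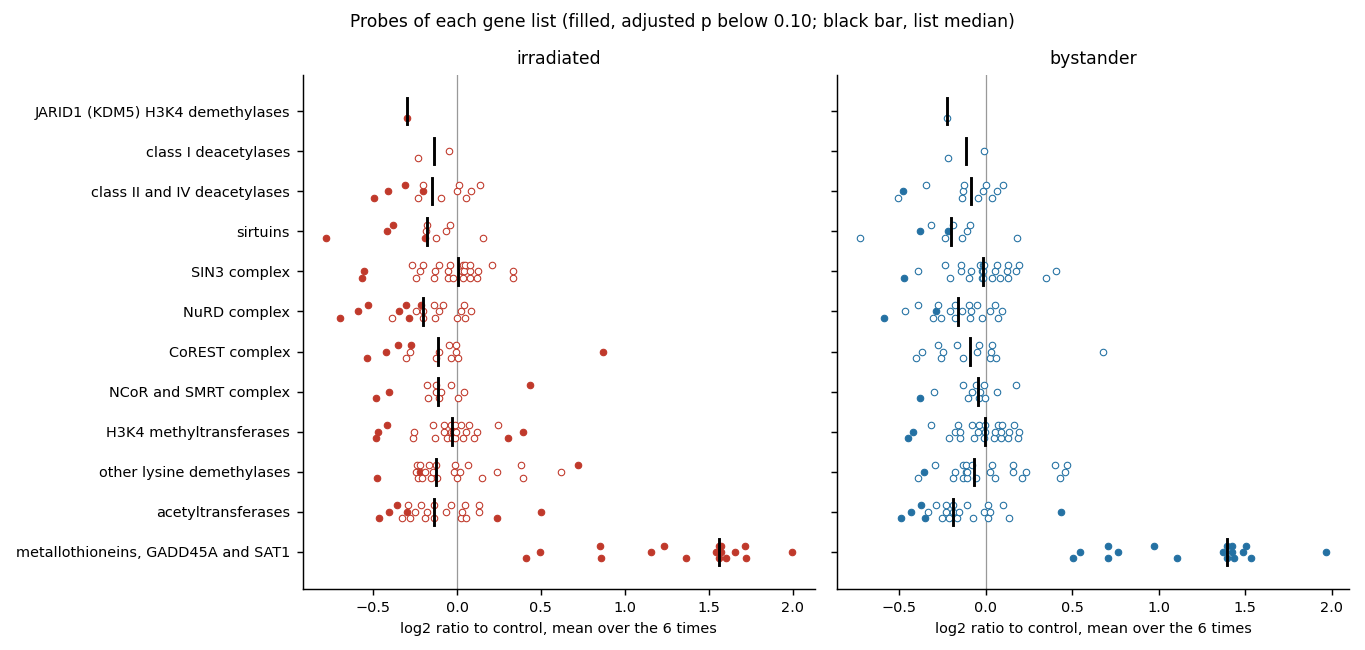
Log2 ratio to control averaged over the 6 times (horizontal axis) for the probes of each gene list (vertical axis), irradiated cells on the left and bystander cells on the right, without the 5 members. Each circle is a probe, filled where its adjusted p is below 0.10, and the black bar is the list median; the chromatin lists have medians between -0.30 and 0.00 and the list of metallothioneins, GADD45A and SAT1 a median of 1.56 after irradiation and 1.39 in bystander cells.

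The last list holds 11 genes, namely metallothioneins, small proteins that bind zinc and copper, with the stress gene GADD45A and the polyamine acetyltransferase gene SAT1. The network analysis of the study set a group of metallothioneins and these 2 genes downstream of JARID1B, but its text does not name each metallothionein listed here. The study chose genes by their response at 4 h and grouped them by their time courses on these samples, so their counts are no independent evidence of direction. All 17 of their probes that passed the filter were called higher at 0.5 h in both treatments (6.62% and 4.35% of all tested probes), with medians of 2.32 in irradiated and 2.30 in bystander cells, and all 17 again in the mean over the 6 times (15% and 7.3%). In irradiated cells 15 were called at 2 h, 14 at 4 h and 15 at 6 h, in bystander cells 11, 13 and 11, beside 6.13%, 1.18% and 10.7% of all tested probes called in either direction in irradiated and 0.23%, 0.618% and 0.277% in bystander cells. At 1 h and 24 h 0 were called in either treatment (limma), with medians between 0.77 and 1.33. MT2A (A_23_P106844), the metallothionein probe with the strongest signal, had irradiated ratios of 0.97 at 0.5 h, 0.46 at 1 h, 0.89 at 2 h, 0.99 at 4 h, 0.90 at 6 h and 0.93 at 24 h and bystander ratios between 0.26 at 1 h and 1.02 at 0.5 h. In irradiated cells MT2A rose at 0.5, 2, 4 and 6 h (adjusted p of 0.053, 0.014, 0.054 and 0.063) and was not called at 1 h (0.137) or 24 h (0.158). In bystander cells MT2A was called at 0.5 h (0.052), and not at 2 h (0.1003) or the other 4 times. Without scaling the irradiated MT2A calls at 4 h and 6 h were lost (limma, adjusted p of 0.316 and 0.137). The irradiated ratios at 2, 6 and 24 h were then 0.49, 0.51 and 0.52. The bystander value at 4 h was called without scaling, at 1.17 (limma, adjusted p = 0.027). MT1F rose by 3.55 ± 1.98 in bystander cells and MT1E by 2.63 ± 1.45 in irradiated cells at 0.5 h, where their ratios in experiments 1 to 4 were 5.28, 5.20, 2.23 and 1.48 and 3.68, 4.00, 1.90 and 0.96. The MT1F probe had the weakest signal of the 17, with a mean level of 6.92, and the next weakest was at 11.52. Metallothionein genes are near-identical in sequence, and their probes may share signal.

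The genes whose levels followed each member most closely over the 72 arrays, after the mean of the 3 arrays of the same time and experiment was taken off, were LMO2 (r = 0.87), SELENOP (listed as SEPP1; 0.84) and SLC6A15 (0.84) for JARID1B. For JARID1A they were KMT2C (listed as MLL3; 0.86), ITGA2 (0.86) and DDX6 (0.85). For HDAC1 they were LOXL1 (0.93), LMAN2L (0.92) and SULF2 (0.92), and for HDAC2 FAM204A (listed as C10orf84; 0.94), THOC2 (0.93) and ZC3H15 (0.93). HDAC3 had the weakest neighbors, TBC1D16 (0.78), PWWP3A (listed as MUM1; 0.74) and LRPAP1 (0.73). Between the 2 probes of 1 gene r was 0.74 for JARID1B and 0.47 for JARID1A. These correlations describe arrays that share experiments and controls.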

How the data were processed

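Total RNA of 72 samples was hybridized to Agilent one-color Whole Human Genome arrays. The authors deposited the output of Agilent Feature Extraction 9.1.3.1, which holds background-subtracted probe intensity values on a linear scale and quality flags for each spot, and did not normalize between arrays. The table of log2 values deposited by the authors was used as an alternative. The genome build was not given in the sources used here.

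Control and non-uniform spots were left out and spots of 1 probe averaged. Arrays were scaled to the same 75th percentile, values below 1 set to 1, and log2 taken. As in the study, a probe was dropped when over 10% of its arrays were dim or non-uniform. On each array 65.7% to 76.9% of spots exceeded background and at most 3 were saturated; 4 arrays a group limit the precision.

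Each time point was fitted with limma 3.58.1 (R 4.3.3; intensity trend, experiment as block; 12 arrays) and p-values were adjusted by Benjamini-Hochberg over all tested probes. Pairing by experiment follows the study's methods; arrays of the same experiment and time deviated together (median r of 0.36 to 0.63 by time, against -0.23 to -0.13 for other pairs). Slides (3 per time point, 4 arrays each, each scanned separately) held several treatments. Intervals are 95% from the fit.

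The members and gene lists were chosen with earlier results of these data known. All member probes were named. From each list the 2 largest rises and 2 largest falls past the threshold were named, each gene once, with the brightest metallothionein and, per member, the 3 genes of highest correlation. Comparisons of 2 members on the same arrays, the fit without control arrays, means without 1 time point and values by slide were chosen after seeing the data. Current symbols came from RefSeq (GRCh38.p14) by accession, which matched 4 of the 5 member genes; JARID1A was not matched and kept its name in the files.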

Additional observations from a re-analysis of the deposited data

Results flagged for a closer look

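Of the 84 sets of 4 paired ratios (7 probes, 6 times, 2 treatments against control), 4 held an experiment far from the other 3 by Dixon's ratio, and chance alone puts about 5% of sets there. In irradiated cells at 2 h, experiment 4 gave -0.38 for HDAC1, with the others between -0.03 and 0.03, and 0.69 for HDAC2, with the others between -0.08 and 0.03. JARID1B (A_32_P70724) gave -0.41 in experiment 3 of irradiated cells at 0.5 h, with the others between -0.01 and 0.05. JARID1A (A_23_P204406) gave 0.89 in experiment 2 of bystander cells at 0.5 h, with the others between 0.03 and 0.17. The control array is shared by both treatments, and its part in these values was not tested.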

How the results depend on the processing

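The count of member calls for irradiated cells (1 of 42, beside 4.74% of the tests of all probes) was 6 without scaling (7.78%), namely both JARID1B probes at 2 and 6 h and HDAC1 and HDAC3 at 2 h, all lower. It was 3 with quantile normalization (5.15%), namely both JARID1A probes at 0.5 h and JARID1B A_32_P70724 at 6 h. It was 6 in 1 fit over all 72 arrays (7.68%), which pools the spread of all times, namely both JARID1A probes at 0.5 h, both JARID1B probes and HDAC2 at 6 h and HDAC1 at 24 h. It was 0 with normexp background correction (3.2%), without the filter on dim probes (1.01%) and with no replicate block (0.0594%). It was also 0 with slide as a fixed block (2.5%), without the intensity trend (4.09%) and at an adjusted p below 0.05 (1.14%). It was 0 to 1 when 1 experiment was left out (0.799%, 1.12%, 2.41% and 3.73% without experiments 1 to 4). For bystander cells (0 of 42, beside 1.35% of the tests of all probes) it was 1 in the fit over all 72 arrays (HDAC1 at 24 h, beside 3.24%). It was 0 to 1 without 1 experiment (0.0165%, 0.0066%, 1.05% and 2.49% without experiments 1 to 4). In the mean over the 6 times the irradiated count (2 of 7) was 1 with the authors' value table (14.4% of all tested probes) and without the filter (12.5%), 0 with no replicate block (0.527%) and at 0.05 (10.8%), 0 without the 0.5 h arrays (8.54%) and 1 without the 6 h arrays (21.9%). It was 0 to 1 without 1 experiment (25.5%, 23.5%, 2.81% and 7.05% without experiments 1 to 4). The bystander count (0) was 1 with quantile normalization (15%) and 1 with normexp (33.2%). The list probes called in any comparison (55 of 182, with the metallothioneins, GADD45A and SAT1, beside 22.5% of all tested probes) were 111 without scaling (46.3%), 23 without the filter (5.85%), 1 with no replicate block (0.301%), 22 at 0.05 (5.94%) and 19, 22, 34 and 51 without experiments 1, 2, 3 and 4 (4.23%, 6.21%, 13.6% and 23.6%). No member value that was called turned its sign under any alternative, but 33 of 98 member values did so without scaling, the largest at 0.36. Signs also turned for 15 without experiment 4 (the largest at 0.21), 14 without experiment 3 (0.12), 3 and 5 without experiments 1 and 2, and 8 of 84 with slide as a block (0.07). The direct comparison of irradiated and bystander cells gave 0 calls under every alternative run. The mean with slide as a block was not run. With 4 arrays a group, a difference whose 95% interval includes 0 could not be told from no difference.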
